A study of Mus musculus with 2 samples.

Results

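Aminoacyl-tRNA synthetases are the enzymes that join each amino acid to its transfer RNA, the step that sets the genetic code before the ribosome reads it. Mammalian cells hold separate nuclear-encoded enzymes for translation in the cytosol and in mitochondria, although Gars1 and Kars1 each supply both compartments. Several cytosolic synthetase genes are known targets of Atf4, the transcription factor of the amino acid response, which is made when amino acids run short or proteins misfold. The 35 genes described here were chosen by name, 16 for mitochondrial and 19 for cytosolic enzymes, among 16593 genes with a named probe on the array. The rule uses gene names alone, but the synthetases were chosen with earlier results of these data known. So were the gene lists and promoter motifs used below. Older symbols without the final 1, such as Aars for Aars1, were read as the same gene.

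Expression was compared between 2 cultures of mouse embryonic fibroblasts, primary connective tissue cells of the embryo. One culture received Fgf2, fibroblast growth factor 2, a ligand of receptor tyrosine kinases, and the other received no agent. Both are labelled male, and strain, passage, dose and duration are not given in the sources used here. Each culture was read on 1 Illumina bead array, which leaves every difference without a replicate check and allows no test between the cultures. The treated culture was identified from its title and agent label, because the design text words both cultures as untreated.

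Levels are background-corrected, quantile-normalized signals on the log2 scale, and differences are Fgf2 minus no Fgf2. Where several probes measured a gene, the brightest on average stood for it, and detection required a detection p under 0.01. Of 25697 probes, 39.9% were detected with Fgf2 and 41.1% without it, and 6898 genes were detected on both arrays. The only measure of error is the spread between detected probes of one gene, a pooled SD of 0.22 for the difference over 1749 genes. It covers differences between probes, and neither error shared by all probes of an array nor the variation between cultures. That SD was 0.26 for the 583 genes of lowest level and 0.17 for the 583 of highest level. All 13 fibroblast markers with a named probe were detected on both arrays, including collagens and vimentin. Of the other marker lists, 2 of 8 macrophage, 1 of 8 endothelial, 2 of 7 epithelial, 2 of 6 skeletal muscle, 1 of 5 neural and 0 of 6 pluripotency genes were. The summed signal took in every gene with a named probe, detected or not, and was uncorrected for background. It was 62757 with Fgf2 and 81991 without for the fibroblast list, and 1544 with Fgf2 and 1422 without for the macrophage list. It was 1318 with Fgf2 and 1680 without for the epithelial list, and 2258 with Fgf2 and 3691 without for the muscle list. Single markers moved by more than these sums. Cd14, a monocyte and macrophage receptor, was 2.99-fold higher with Fgf2, but lay close to background without it, with a detection p of 0.0088. Lyz2, the other macrophage marker detected on both arrays, differed by 0.17. Krt14, a basal keratin, was detected only without Fgf2 and at least 5.86-fold lower with it. Its signal, 158 with Fgf2 and 483 without, is part of the epithelial sum. Of the other epithelial markers, Krt8 was 1.81-fold lower and Krt18 1.28-fold higher, and 4 were detected on neither array. In the muscle list, Des was 2.14-fold and Acta1 1.96-fold lower, whereas 1 marker was detected only with Fgf2. Among fibroblast genes, Pdgfra was 2.56-fold higher and Col1a1 5.76-fold lower. The part of other cells or of a change in fibroblast state in the values below was not tested. In bulk RNA, fewer cells of a type and less RNA per cell cannot be told apart.

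The median differences of mitochondrial and cytosolic synthetase genes had opposite signs. Among the 8 mitochondrial genes detected on both arrays, 6 were higher with Fgf2 and the median difference was 0.33, with a range from -0.44 to 0.56. Rars2 is counted among these 6 by its brightest probe, although its other detected probes were below 0. Among the 15 cytosolic genes, 11 were lower with Fgf2 and the median was -0.60, with a range from -1.27 to 0.35. Over all 6898 detected genes the median was 0.03, and 45.9% were below 0. None of the mitochondrial genes was at least 1.5-fold lower with Fgf2, whereas 8 of the cytosolic genes were, against 7.25% of all detected genes. None of either set was at least 1.5-fold higher, where 6.76% of all genes were. The mitochondrial median lay above the cytosolic one by 0.93, and by 0.74 to 1.06 over all the settings tried.

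**Figure D1:**
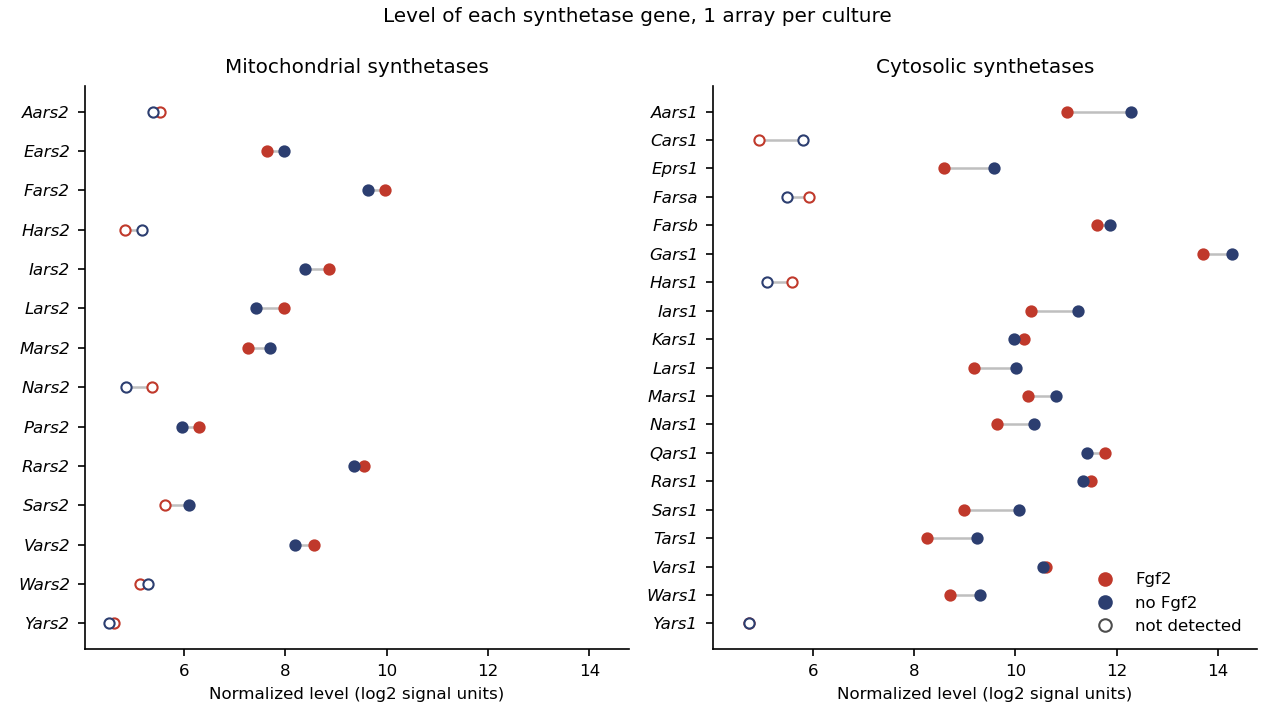
Normalized level of the brightest probe of each synthetase gene (horizontal axis, log2 signal units) with Fgf2 (red) and without (dark blue), 1 array per culture. Open circles mark values that were not detected; of the genes detected on both arrays, 6 of 8 mitochondrial genes have the red point on the right, and 11 of 15 cytosolic genes have it on the left.

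Mitochondrial enzymes charge the transfer RNAs that translate the proteins encoded by the mitochondrial genome. Of the 16 genes, Cars2 and Tars2 had no probe named here. Lars2, the leucine enzyme, had a level of 7.97 with Fgf2 and 7.41 without, a difference of 0.56 or 1.47-fold. Iars2, for isoleucine, had 8.87 with Fgf2 and 8.39 without, a difference of 0.47. Both exceeded the probe SD of 0.22 but stayed under 1.5-fold. Vars2, for valine, was 1.29-fold higher, with levels of 8.57 with Fgf2 and 8.20 without. Fars2, the phenylalanine enzyme, was 1.26-fold higher, at 9.97 with Fgf2 and 9.63 without. Pars2, for proline, was 1.26-fold higher too, but lay close to background, with detection p-values of 0.0038 with Fgf2 and 0.0088 without. These 5 genes lay above 80.9% to 92.5% of all detected genes in the size of their signed difference.

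A pair of mitochondrial genes went the other way. Mars2, the methionine enzyme, had 7.25 with Fgf2 and 7.69 without, a difference of -0.44. Ears2, which loads glutamate and, with the mitochondrial amidotransferase, also provides glutaminyl transfer RNA, had 7.64 with Fgf2 and 7.98 without, a difference of -0.34. Rars2, for arginine, had no single direction: its brightest probe gave 0.19, and its other detected probes gave -0.07 and -0.23. Sars2, the serine enzyme, was detected only without Fgf2, at least 1.08-fold lower with it. The remaining 5 genes, Aars2, Hars2, Nars2, Wars2 and Yars2, were detected on neither array, with detection p-values from 0.041 to 0.74 with Fgf2 and from 0.064 to 0.92 without. No direction can be read for them.

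The cytosolic set was split, with 10 genes lower by 0.55 or more and 5 genes between -0.27 and 0.35. Aars1, the alanine enzyme, had the greatest difference, with a level of 11.02 with Fgf2 and 12.29 without, or 2.42-fold lower. Only 1.38% of all detected genes had a lower value than this. Sars1, the serine enzyme, had 8.99 with Fgf2 and 10.08 without and was 2.14-fold lower. Its dimmer probe gave a larger difference, -1.79 against -1.09. Aars1 and Sars1 were at least 2-fold lower, 2 of 15, where 2.52% of all genes were. This count ranged from 1 to 4 over the settings tried, since Sars1 was at -0.95 without background correction and Eprs1 and Tars1 lay just under 2-fold. None was at least 2-fold higher, where 1.80% of all genes were.

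Tars1, for threonine, came next, with 8.26 with Fgf2 and 9.25 without, a difference of -0.99. Its second probe gave -0.58, just inside a 1.5-fold difference. Eprs1 encodes a double enzyme that charges both glutamate and proline. Its level was 8.60 with Fgf2 and 9.58 without, a difference of -0.98, and its second probe gave -1.33. Iars1, for isoleucine, had 10.31 with Fgf2 and 11.24 without, 1.90-fold lower, and its 2 detected probes gave the same -0.93. Lars1, for leucine, had 9.19 with Fgf2 and 10.01 without, 1.76-fold lower. Nars1, for asparagine, had 9.63 with Fgf2 and 10.37 without, 1.67-fold lower. All of these genes were at least 1.5-fold lower in every setting tried except Tars1, which fell short when the probe with the smaller difference was used.

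A further 3 genes lay at the 1.5-fold line, which is 0.58 on the log2 scale. Wars1, the tryptophan enzyme, had 8.71 with Fgf2 and 9.30 without, a difference of -0.60 that put it just past the line. Its 4 detected probes averaged -0.73 ± 0.25 (SD, n = 4 probes), and all were below 0. Gars1, the glycine enzyme of both compartments, had 13.71 with Fgf2 and 14.29 without, a difference of -0.58 that left it just short. Mars1, for methionine, had 10.24 with Fgf2 and 10.80 without, a difference of -0.55, and its second probe gave -0.70. The count of 8 therefore depends on small shifts, and ranged from 7 to 10 over the settings tried.

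The other detected cytosolic genes differed little. Qars1, for glutamine, had 11.78 with Fgf2 and 11.42 without, a difference of 0.35. Kars1, the lysine enzyme of both compartments, had 10.18 with Fgf2 and 9.98 without, a difference of 0.20. Rars1, for arginine, had 11.50 with Fgf2 and 11.34 without, and its probes gave 0.17 and 0.16. Farsb, the beta subunit of the phenylalanine enzyme, had probes at -0.27 and -0.08. Vars1, for valine, had probes at 0.06 and 0.43, and the first turned to -0.02 under cyclic loess. Except for Qars1, Farsb and the second Vars1 probe, these values lay within the pooled probe SD of 0.22. Cars1, Farsa, Hars1 and Yars1 were detected on neither array. Of these, Cars1, for cysteine, came closest without Fgf2, with detection p-values of 0.254 with Fgf2 and 0.0125 without. Farsa, the alpha subunit of the phenylalanine enzyme, had 0.0113 with Fgf2 and 0.0388 without.

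**Figure D2:**
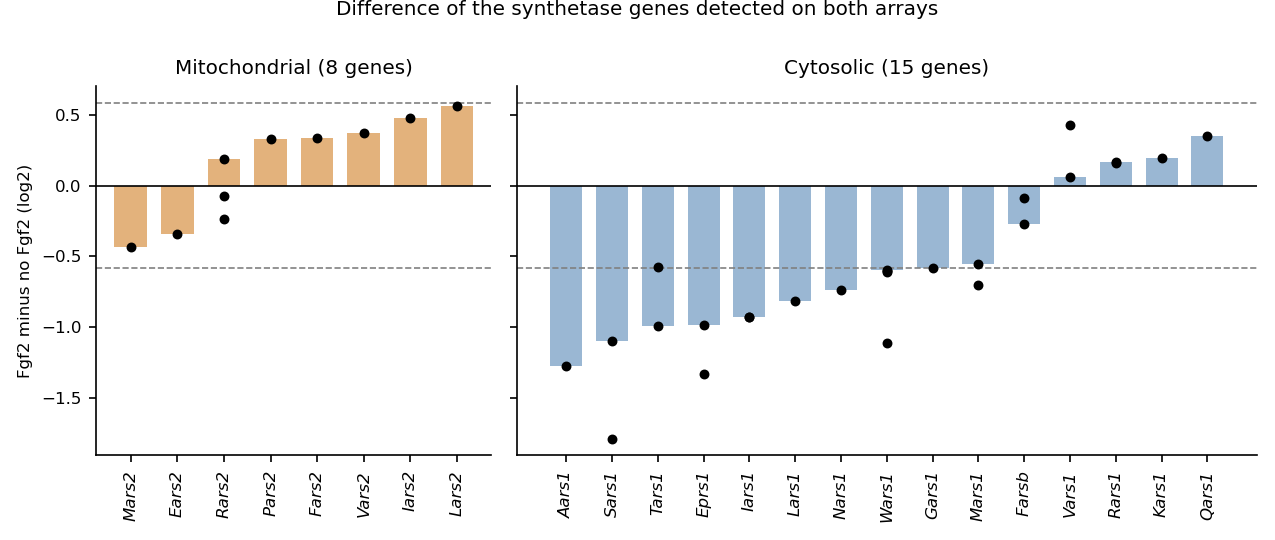
Difference (Fgf2 minus no Fgf2, log2) of each synthetase gene detected on both arrays. Bars show the brightest probe, black points all detected probes, and dashed lines 1.5-fold; 8 cytosolic bars and 0 mitochondrial bars pass the lower line.

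Detected probes of one gene pointed the same way in the cytosolic set. Of 1 mitochondrial and 9 cytosolic genes with more than 1 detected probe, all the cytosolic genes had probes of 1 sign and Rars2 did not. The other mitochondrial genes detected on both arrays rest on 1 detected probe each, so no second probe checks their direction. Among the 36 probes of these genes detected on both arrays, 4 of 10 mitochondrial probes and 20 of 26 cytosolic probes were below 0. The widest range within a gene was 0.69, for Sars1.

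Where both enzymes for an amino acid were detected, the mitochondrial one had the higher difference in 7 of 7 pairs by the brightest probes, with Eprs1 standing in 2 of them. Arginine turned with the choice of probe, which left 6 of 7 pairs in 2 of the 13 settings. The settings with other detection filters kept the same probes, so no pair could change in them. The gap was 1.40 for isoleucine, 1.38 for leucine and 1.31 for proline. In these pairs the mitochondrial gene lay above 0 and the cytosolic gene below it: Iars2 had 0.47 and Iars1 -0.93, Lars2 had 0.56 and Lars1 -0.82, and Pars2 had 0.33 and Eprs1 -0.98. For glutamate both were lower with Fgf2, Ears2 at -0.34 and Eprs1 at -0.98, a gap of 0.64. The gap was 0.31 for valine, 0.12 for methionine, where both were lower, and 0.02 for arginine. For valine it fell to 0.13 with the mean of all detected probes. The probe SD of 0.22 applies to the difference of 1 gene, and a gap carries the error of both genes. With the mean of all detected probes Rars2 was at -0.04 and Rars1 at 0.16, a gap of -0.20, and with the probe of smallest difference the gap was -0.23. The 9 other pairs lacked a detected value for at least 1 enzyme, among them Fars2, which was paired with the catalytic subunit Farsa.

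**Figure D3:**
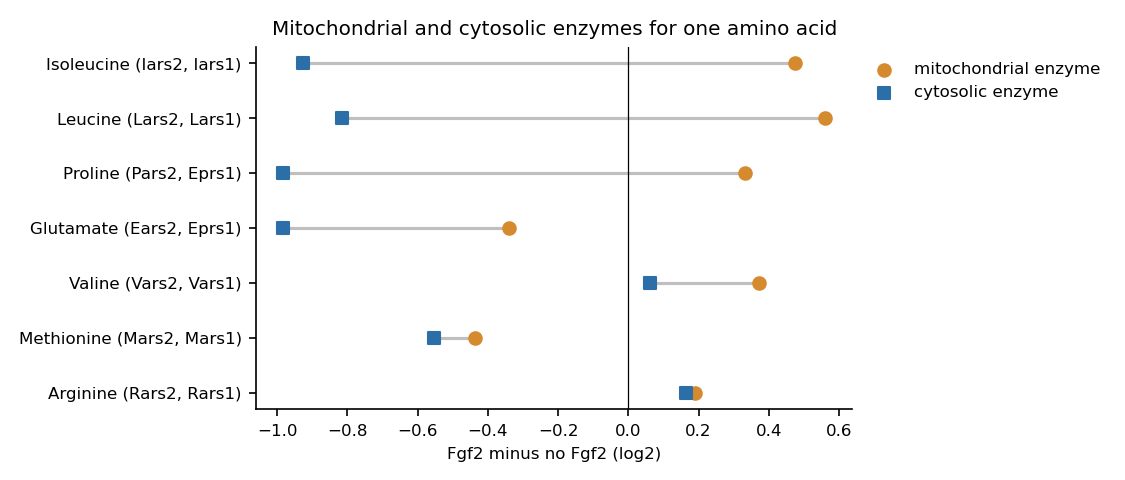
Difference (Fgf2 minus no Fgf2, log2) of the mitochondrial (orange circles) and cytosolic (blue squares) enzyme for the same amino acid, for the brightest probes of the 7 pairs detected on both arrays. The circle lies right of the square in each row, by 1.40 for isoleucine and by 0.02 for arginine, where the symbols overlap.

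In the cytosol, 7 of the listed enzymes sit in the multisynthetase complex, a large assembly held together by scaffold proteins, and these were divided. Eprs1, Iars1, Lars1 and Mars1 lay between -0.98 and -0.55, and Kars1, Qars1 and Rars1 between 0.17 and 0.35. The complex members had a median of -0.55, with 3 of 7 at least 1.5-fold lower, against 7.25% of all genes. The cytosolic enzymes outside it had a median of -0.67, with 5 of 8 against the same 7.25%. The scaffold genes Aimp1, Aimp2 and Eef1e1 differed by 0.17, 0.16 and -0.16. Aimp2 is uncertain, since its second probe gave -0.48. Synthetases also fall into 2 structural classes with unrelated active sites. Cytosolic class I genes had a median of -0.55, with 3 of 7 at least 1.5-fold lower, and cytosolic class II genes a median of -0.74, with 4 of 7, again beside 7.25% of all genes. Eprs1 joins an enzyme of each class and was counted in neither. Lower genes thus occurred inside and outside the complex and in both classes.

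The promoters of the synthetase genes were read for TGATGNAA, the core of the C/EBP-ATF response element to which Atf4 binds with a partner, on either strand, from 250 bases before to 50 after the start in the RefSeq table (GRCm38.p6). Of the 16 mitochondrial genes 14 had an entry, and 0 held the motif. Of the 19 cytosolic genes 12 had an entry, and 5 held it, or 41.7%, against 4.51% of the 27025 genes in the table. The 5 were Aars1, Gars1, Iars1, Tars1 and Yars1. A match in each of the 5 promoters is shown because no mitochondrial promoter in the table held one. Each is written along the strand of its gene, with the motif in capitals and 11 bases on each side. All but that of Yars1 lie on the opposite strand and so appear as the reverse complement of the motif.

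Aars1, chr8:111033840-111033869, plus strand, motif from base 10: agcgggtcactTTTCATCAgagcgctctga
Gars1, chr6:55037960-55037989, plus strand, motif from base -30: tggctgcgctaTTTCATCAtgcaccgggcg
Iars1, chr13:49682126-49682155, plus strand, motif from base 8: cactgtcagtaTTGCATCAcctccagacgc
Tars1, chr15:11399655-11399684, minus strand, motif from base -15: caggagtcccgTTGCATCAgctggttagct
Yars1, chr4:129189895-129189924, plus strand, motif from base 4: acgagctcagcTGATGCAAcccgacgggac

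Bases are counted from the gene start, with negative numbers before it. The sequence is identical over the 8 motif bases in Iars1 and Tars1, and Yars1 holds their reverse complement. The 4 cytosolic genes that held the motif and were detected on both arrays differed by -1.27 to -0.58, with a median of -0.96. The 6 that had an entry without it differed by -1.09 to 0.35, with a median of -0.41, and included Sars1, Eprs1 and Mars1. So the lower genes included some with no match in this window. Lars1, Nars1 and Wars1, each at least 1.5-fold lower, and Rars1 and Vars1 had no entry. These medians therefore leave them out. The E-box CACGTG, which the Myc family binds, was found in 1 of 14 mitochondrial promoters, that of Ears2, and in 4 of 12 cytosolic promoters, those of Aars1, Farsb, Iars1 and Tars1. It was present in 8.09% of all genes in the table. The 2 motifs shared no bases. These matches describe letters in the reference and were not tested as binding sites.

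Other genes of the amino acid response had a lower median than either set of synthetases. Of 24 listed genes detected on both arrays, 23 were lower with Fgf2, 20 by at least 1.5-fold and 16 by at least 2-fold, with a median of -1.51. Of all detected genes, 45.9% were below 0, 7.25% were at least 1.5-fold lower and 2.52% at least 2-fold lower. Atf4 itself had 10.30 with Fgf2 and 11.56 without, 2.39-fold lower. Asns, which makes asparagine from aspartate, had 11.96 with Fgf2 and 13.48 without, 2.88-fold lower. Ddit3, the stress factor CHOP, was 4.53-fold lower. Aldh1l2 and Chac1, of mitochondrial folate and glutathione metabolism, lay at -4.04 and -3.82, followed by Nupr1 and Slc6a9 at -2.76 and -2.30. Trib3, a pseudokinase induced in this response, was detected only without Fgf2 and was at least 5.03-fold lower with it. By comparison Aars1, at -1.27, was close to Atf4, at -1.26. Members of this list were known from earlier results on these arrays to be lower.

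Genes that sense or relieve the response were mixed. Ppp1r15a and Ppp1r15b, which guide a phosphatase to the initiation factor eIF2, were lower by 1.74-fold and 1.75-fold. Eif2ak1, an eIF2 kinase, was 1.47-fold higher, and Impact, which restrains the kinase Gcn2, differed by -0.39. Eif2ak4, which encodes Gcn2, the sensor of uncharged transfer RNA, was detected on neither array, with detection p-values of 0.75 with Fgf2 and 0.83 without.

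The lists for transfer RNA processing, cytosolic initiation and cytosolic elongation had medians between -0.06 and 0.12. The median was 0.00 for 21 transfer RNA processing and modification genes, with 1 of 21 at least 1.5-fold lower, Trmt61a, a methyltransferase subunit, at -0.90, and 1 higher, Gtpbp3, which modifies mitochondrial transfer RNA, at 0.63. Over all genes 7.25% were lower and 6.76% higher by that much, so neither count is above the share of all genes. Cytosolic initiation factors had a median of -0.06 over 15 genes, with 2 of 15 at least 1.5-fold lower, against 7.25% of all genes. These were Eif4ebp1, a repressor of the cap-binding factor that is also on the amino acid response list, at -0.71, and Eif3c at -0.60. Cytosolic elongation factors had a median of 0.12 over 5 genes, and Eef2 differed by -0.32 by its brightest probe. The 3 related editing genes had a median of -0.34, all within 1.5-fold, with Prorsd1 at -0.41, Dtd1 at -0.34 and Aarsd1 at 0.24. Tars3, a further threonine enzyme, differed by 0.29.

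The lists of other mitochondrial translation genes had medians of 0.17 and 0.09, beside 0.03 for all genes. The 0.17 was that of 54 genes of the mitochondrial ribosome, of which 13 were below 0, and the 0.09 that of 8 mitochondrial translation factors, of which 2 were below 0. Of all genes 45.9% were below 0. Only 2 of the 54 ribosome genes were at least 1.5-fold higher, where 6.76% of all genes were. At least 2-fold higher was 1 of 54, beside 1.80% of all genes. Mrps6 was 2.49-fold higher and Mrps21 1.69-fold higher, and Mrps22, at 0.58, lay just short of 1.5-fold. Tufm, the mitochondrial elongation factor, had 11.69 with Fgf2 and 11.28 without, a difference of 0.40. The amidotransferase genes that work with Ears2 had a median of -0.00, with Gatc at 0.28, Qrsl1 at -0.11 and Gatb at -0.00 by its brighter probe and 0.33 by its other detected probe.

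**Figure D4:**
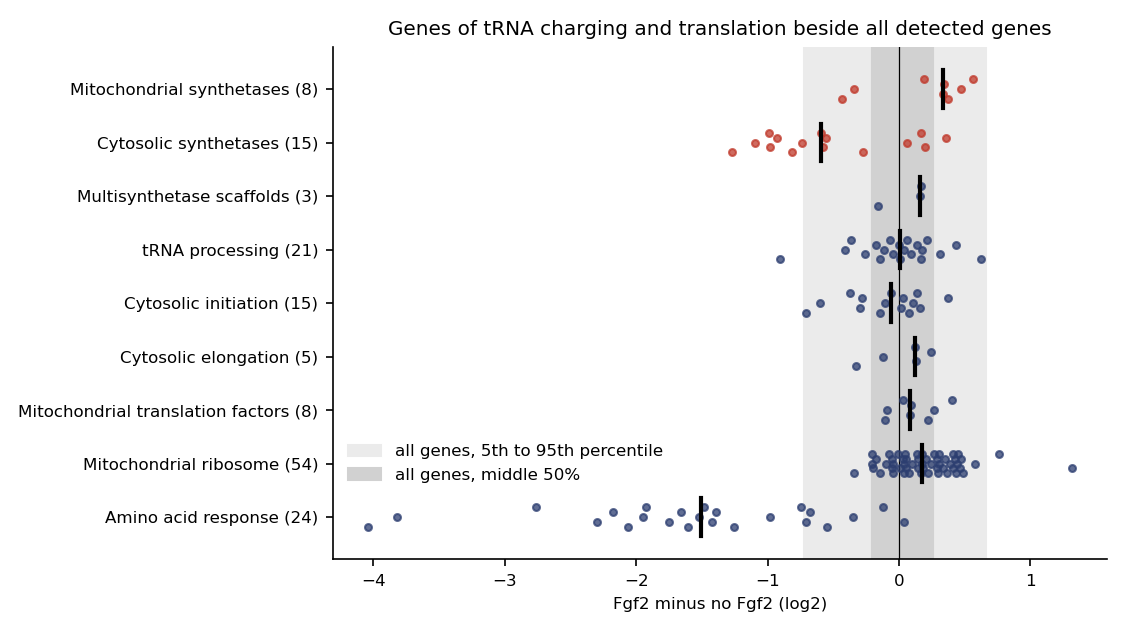
Difference (Fgf2 minus no Fgf2, log2) of every gene detected on both arrays in each list, with the number of genes in brackets and black bars at the medians. Grey bands show all 6898 detected genes; the cytosolic synthetase median of -0.60 and the amino acid response median of -1.51 lie left of the middle band, and the mitochondrial synthetase median of 0.33 lies right of it.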

How the data were processed

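Total RNA (300 ng per culture) was amplified into biotinylated cRNA, per the labels' protocols. Per the file headers, the deposited table gives an intensity (signal) and a detection p-value for each probe and array. The submitters' processing notes list BeadStudio 3.2, lumi and RMA without saying which step used which, and no source used here says whether a background had been subtracted. The authors also deposited a log2 table, whose columns have the same median (4.30) and rank probes as the signals do. Its background correction is unknown, and it served as an alternative.

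Background correction used normexp from limma 3.58.1 (R 4.3.3), with the background inferred from the detection p-values (128.4 with Fgf2 and 127.9 without), an offset of 16, quantile normalization and log2. Summaries were made with pandas 2.3.3 and numpy 2.4.6 under Python 3.11.15. Of 25697 probes, 23978 had 1 gene symbol, 0 several and 1719 none, and 23962 matched RefSeq by Entrez number. The number of arrays limits the precision, and counts are of genes past 1.5-fold or 2-fold. The normalization and the differences were tested on simulated arrays with a single probe per gene, so the choice among probes was not tested. The synthetases, gene lists and motifs were chosen with earlier results of these data known. All 35 synthetases could be named. From the other lists, up to 4 genes with the greatest difference were named, plus Atf4, Ddit3, Trib3, Asns and the scaffold genes. Eif2ak4 and Krt14 were added after their values were seen. The alternatives comprised plain or no background correction, an offset of 50 or 1, scaling to the median, cyclic loess, the authors' table, other detection filters and the mean of a gene's probes. The probe with the smallest absolute difference was added after the data were seen. Protein sequences were not used here, and some items covered by the naming rule and the motif search are not reported here.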

Additional observations from a re-analysis of the deposited data

How the results depend on the processing

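No paired analysis was possible because each group holds 1 array. Of 23 synthetase genes detected on both arrays, 21 kept their sign in all 12 alternatives. The exceptions were Rars2, at -0.04 with the mean of its probes and -0.07 with its probe of smallest difference, and Vars1, at -0.02 under cyclic loess. The other detection filters changed only which genes entered, so the values of these 23 genes were fixed there. Genes with a single detected probe could not change with the choice of probe either. Arginine was the pair that turned, at -0.20 and -0.23 in those Rars2 settings. The mitochondrial median ranged from 0.17 to 0.38 and the cytosolic median from -0.73 to -0.56. Cytosolic genes at least 1.5-fold lower numbered 7 to 10, and 6 of them passed in every setting: Aars1, Eprs1, Iars1, Lars1, Nars1 and Sars1. Cytosolic genes at least 2-fold lower numbered 1 without background correction and 3 with the mean of all detected probes, against 2. They numbered 4 with plain background subtraction, an offset of 1, cyclic loess or the authors' table. Eprs1 and Tars1 lie beside that line. Mitochondrial genes at least 1.5-fold higher numbered 1, Lars2, with plain background subtraction, an offset of 1 or median scaling, against 0. Cytosolic genes at least 1.5-fold higher and mitochondrial genes at least 1.5-fold lower numbered 0 in all settings. The median of all genes stayed between 0.00 and 0.08. Signals near background limit the 9 genes detected on neither array.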
